A study of Mus musculus with 32 samples.

Results

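The genes described here encode the constitutive proteasome, the particle that breaks down proteins marked with ubiquitin in every cell. They were chosen by name as all genes on the array whose symbol is Psma, Psmb, Psmc or Psmd followed by digits, without the interferon-inducible Psmb8, Psmb9 and Psmb10. The rule found 36 of the 18193 genes on the array, 16 of the core (Psma and Psmb) and 20 of the cap (Psmc and Psmd). Of these, 34 had a signal above 103.7, the median of all values, on at least 3 arrays and were tested, 14 of the core and all 20 of the cap. The tested members were 7 genes of the alpha ring, 7 of the beta ring, 6 cap ATPases, 11 cap subunits without ATPase activity and 3 chaperones of cap assembly that carry a Psmd symbol (Psmd5, Psmd9 and Psmd10). Psma8, an alpha subunit known from the testis, had a mean signal of 69.5 and passed that level on 1 array, and Psmb11, the beta subunit of the thymus cortex, had a mean signal of 26.9 and passed it on 0 arrays.

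The proteasome core is a barrel of stacked rings. The outer alpha rings form the gate, and the inner beta rings hold the cutting sites, made by Psmb6, Psmb7 and Psmb5. The cap sits on the gate, where non-ATPase subunits receive the ubiquitin chain and remove it, and a ring of ATPases unfolds the protein and threads it into the core. When proteasome capacity is short, the transcription factor encoded by Nfe2l1 raises the subunit genes together, whereas interferon exchanges the cutting subunits for Psmb9, Psmb10 and Psmb8.

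Messenger RNA of mouse mesentery, the fatty sheet that suspends the intestine and holds its blood vessels and lymph nodes, was measured on 32 oligonucleotide arrays. Treated mice had received 0.5 ml of pristane (TMPD), an oil that causes lasting inflammation of the peritoneal cavity, by the intraperitoneal route. The treated groups were BALB/c (3 arrays at day 3 and 4 at day 18), DBA (3 and 3), and the BALB/DBA F1 hybrid at day 3 (3). Controls were untreated mice, so injection itself has no control, of the strains BALB/c (7 arrays), DBA (6) and F1 (3). The labels give neither age nor sex, nor the substrain of DBA, nor whether each array is a separate animal, so p-values rest on differences among arrays that may be only technical. Array titles carry codes of 3 series, which the labels do not explain. The day 3 series holds all day 3 arrays with 3 controls of each strain, and each day 18 group has its own series with 4 (BALB/c) or 3 (DBA) controls. Each response below compares treated arrays with controls of the same strain and series, and the 5 responses have no array in common.

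The array median signals ran from 90.6 to 135.3. BALB/c control replicate 2, of the BALB/c day 18 series, stood apart, with a highest correlation of 0.858 to any other array against 0.966 or more elsewhere. It also had the highest summed signal of 8 pancreatic acinar markers, 948333 against 151560 on the next array. Calls that change without it are given beside each result. The ratio between the 3' and 5' probe sets of beta-actin, a measure of RNA integrity, had lower means on treated arrays (1.18 to 1.92) than on controls (1.29 to 2.44), and this order held in each response. Xist, the transcript of the inactive X chromosome of females, was high on all 3 treated F1 arrays and on 0 of 3 F1 controls, so sex and treatment cannot be told apart in the F1 response. In the other responses treated and control groups held the same number of Xist-high arrays.

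Values are the arrays' linear signals, and changes are differences of log2(signal + 24.9), treated minus control, with the standard error (SE). A gene is said to have risen or fallen where limma gave an adjusted p under 0.05 over the 13016 genes tested. Because probe sets differ in brightness, levels are compared between arrays and not between genes. In a tissue, fewer cells of a type and less RNA per cell cannot be told apart.

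None of the 34 tested members changed by 2-fold or more in any response, whereas 8.67% to 18.8% of all tested genes did. The largest change was that of Psmd4 in DBA at day 3, a 1.60-fold fall. Across the 5 responses, 23 members passed the test at least once and 11 never did. Of the 23, 10 only rose, 12 only fell and 1, Psmd3, did both. Psmd10 rose and Psmb7 fell in all 5 responses, and these were the only members called in all 5. In a fit without BALB/c control replicate 2, 28 members passed at least once and 6 never did. There 10 only rose, 15 only fell and 3 (Psmb2, Psmb3 and Psmd3) did both, and Psmd4 joined the members called in all 5.

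The members' median change was above 0 in the F1 and below 0 elsewhere, and for BALB/c at day 18 this sign turned with the normalization. In BALB/c at day 3, 4 of 34 members were called (11.8%), against 35.5% of all tested genes. Of these 1 rose, against 18.3%, and 3 fell (Psmb7, Psmd4 and Psmd11), against 17.2%. The median log2 change of the members was -0.11, beside -0.01 over all tested genes. Treated and control arrays did not overlap for 15 members that were lower and 4 that were higher, against 27.6% and 26.7% of all genes. The count of 4 called members became 2 without BALB/c day 3 replicate 2 or BALB/c control replicate 5 or 7. The shares over all genes in those fits are not given. Without BALB/c control replicate 2 the count was 8, where 7 fell and 1 rose against 21.9% and 22.3% of all genes. Quantile normalization gave 2 higher and 1 lower, against 17.2% and 18.3% of all genes, and median centring of the arrays 0 and 3, against 15.4% and 17.5%.

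In the F1 at day 3 the members leaned upward. Of the 34, 12 were called (35.3%), against 36.5% of all tested genes. Of these 11 rose (32.4%), against 18.6%, and 1 (Psmb7) fell, against 18%. The risers were Psma2, Psma4, Psma5, Psma7, Psmb2, Psmb4, Psmc3, Psmd3, Psmd8, Psmd9 and Psmd10, and the median change was 0.15, beside -0.04 over all genes. The groups did not overlap for 15 members that were higher and 4 that were lower, against 25.5% and 26.4% of all genes. Without BALB/c control replicate 2, which enters this fit through the spread alone, 13 rose and 2 fell, against 22.5% and 22.7% of all genes. Quantile normalization gave 11 higher and 0 lower, against 17.7% and 18.9%, and median centring 8 and 0, against 17.8% and 14.9%.

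The members leaned downward in DBA at day 3. Of the 34, 13 were called (38.2%), against 29.8% of all tested genes. Of these 12 fell (35.3%), against 13.4%, and 1 (Psmd10) rose, against 16.4%. The median change was -0.20, beside 0.00 over all genes, and treated arrays lay below every control for 20 members and above every control for 2, against 24.4% and 27.3% of all genes. The count of 13 called members changed when single arrays were left out. It was 7 without DBA day 3 replicate 2 or 3 or DBA control replicate 4. It was 8 without DBA day 3 replicate 1 or DBA control replicate 5. The shares over all genes in those fits are not given. Without BALB/c control replicate 2 the count was 15, where 14 fell and 1 rose against 17.8% and 21.1% of all genes. Quantile normalization gave 2 higher and 9 lower, against 14.8% and 14.5%, and median centring 1 and 9, against 12.7% and 13.5%.

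At day 18 the members moved to both sides. In BALB/c, 8 of 34 were called (23.5%), against 43.9% of all tested genes. Of these 2 rose (Psma7 and Psmd10), against 21.7%, and 6 fell (Psmb7, Psmd4, Psmd5, Psmd6, Psmd11 and Psmd12), against 22.2%. The median was -0.04 over the members and -0.03 over all genes, and turned to 0.01 over the members under median centring. The split between rises and falls moved with the normalization, to 5 higher and 5 lower with quantile normalization, against 21.3% and 24% of all genes, and to 2 and 4 with median centring, against 21.9% and 17.9%. Without BALB/c control replicate 2, which is among the controls here, 12 members fell, against 25.3% of all genes, 2 rose, against 22.9%, and the median was -0.11. The groups did not overlap for 2 members that were higher and 6 that were lower, against 17.9% and 15.1% of all genes.

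The DBA response at day 18 had 12 of 34 members called (35.3%), against 47.4% of all tested genes. Of these 6 rose (Psma2, Psma4, Psma7, Psmd8, Psmd9 and Psmd10), against 22.4%, and 6 fell (Psma6, Psmb6, Psmb7, Psmd4, Psmd5 and Psmd12), against 25%. The median change was -0.09, beside -0.04 over all genes. Treated and control arrays did not overlap for 5 members that were higher and 12 that were lower, against 28.6% and 33% of all genes. The count of 12 called members became 7 without DBA control replicate 3, with 4 higher and 3 lower. The share over all genes in that fit is not given. Without BALB/c control replicate 2 the count became 17, with 6 higher and 11 lower, against 26.6% and 28.8% of all genes. The even split moved with the normalization too, to 2 higher and 6 lower with median centring, against 20.4% and 23.9%, whereas quantile normalization gave 7 and 6, against 22.7% and 27.1%.

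**Figure D1:**
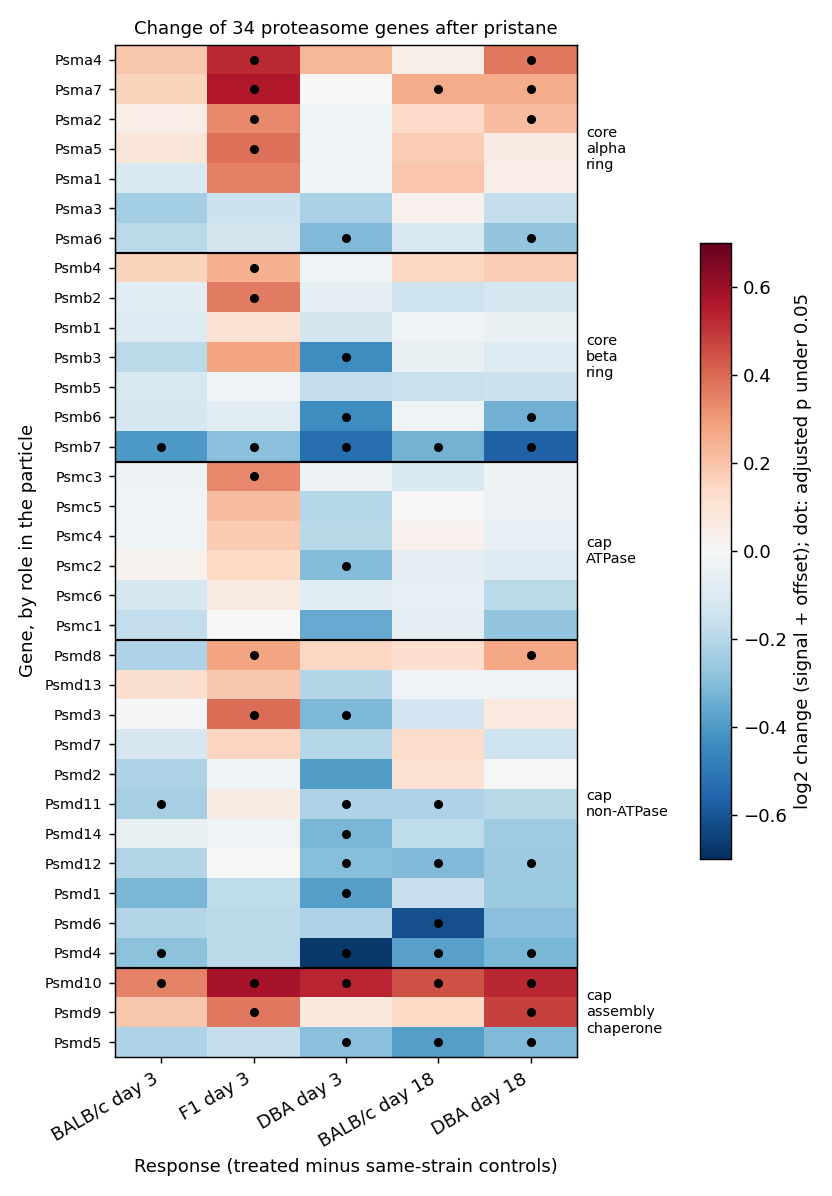
Log2 change of signal (colour, treated minus control) of the 34 tested proteasome genes (rows, grouped by their place in the particle) in the 5 responses to pristane (columns), where a dot marks an adjusted p under 0.05. Psmd10 is red and Psmb7 blue in every column, the F1 column has 11 risers, and the DBA day 3 column has 12 genes that fell.

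Of the 7 alpha-ring genes, which form the gate of the core, 5 had changes above 0 in the F1 and in DBA at day 18. Such changes numbered 6 in BALB/c at day 18, 4 in BALB/c at day 3 and 2 in DBA at day 3. Psma7, Psma4 and Psma2 led the core. The ring's median was 0.35 in the F1, with 4 of 7 members higher (Psma2, Psma4, Psma5 and Psma7), and 0.06 in DBA at day 18, with 3 higher and 1 lower (Psma6). It was 0.05 in BALB/c at day 3 with 0 called, and -0.02 in DBA at day 3 with 1 lower (Psma6), turning to 0.03 with quantile normalization. In BALB/c at day 18 it was 0.14 with 1 higher (Psma7), and -0.01 without BALB/c control replicate 2. Over all tested genes, 18.3%, 18.6%, 16.4%, 21.7% and 22.4% rose in BALB/c day 3, F1, DBA day 3, BALB/c day 18 and DBA day 18. In the same order 17.2%, 18%, 13.4%, 22.2% and 25% fell.

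Psma7, an alpha subunit encoded on chromosome 2, rose in 3 of the 5 responses. Psma7 in the F1 read 3228, 3393 and 3064 on the treated arrays and 2207, 2089 and 2244 on the controls, a rise of 0.56 ± 0.086 (SE, adjusted p = 1.4e-05). In BALB/c at day 18 it read 3562, 3178, 3488 and 3479.7 on the treated arrays and 2946, 2409, 3174 and 2974 on the controls, and rose by 0.26 ± 0.075 (SE, adjusted p = 0.0067). On the DBA day 18 arrays it read 4579, 5104 and 4631 on the treated arrays and 4019, 3790.3 and 4111 on the controls, and rose by 0.26 ± 0.086 (SE, adjusted p = 0.014). In these 3 responses each treated array lay above each control. The DBA day 18 call was lost without DBA day 18 replicate 2 or DBA control replicate 2 and under median centring of the arrays, and the BALB/c day 18 call in a fit of that response's arrays alone. At day 3 the parental strains showed overlapping arrays. BALB/c read 2916, 2713 and 2565 on the treated arrays and 2375, 2606 and 2359.6 on the controls, a difference of 0.16 ± 0.086 (SE, adjusted p = 0.17), and DBA read 2477, 2464 and 2299 on the treated arrays and 2333, 2492 and 2394 on the controls, a difference of 0.00 ± 0.086 (SE, adjusted p = 0.98). A further probe set for Psma7 gave 0.57 in the F1 and 0.03 in DBA at day 3. That probe set had the same sign in both day 18 responses and passed in neither.

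Psma4, another alpha subunit, rose in the F1 and in DBA at day 18. The F1 arrays read 6669, 6475 and 6166 on the treated arrays and 3779, 4583 and 5177 on the controls, a rise of 0.52 ± 0.11 (SE, adjusted p = 0.00044). The DBA day 18 arrays read 5055, 6246 and 5979 on the treated arrays and 4516, 4227 and 4591 on the controls, a rise of 0.37 ± 0.11 (SE, adjusted p = 0.0063). In both, all treated arrays lay above all controls. The same held, without passing the test, in BALB/c at day 3, where Psma4 read 4990.4, 5689 and 5941 on the treated arrays and 4806, 4789.6 and 4962 on the controls (difference 0.19 ± 0.11 SE, adjusted p = 0.19), and in DBA at day 3, where it read 5416, 5322 and 5339 on the treated arrays and 5170.5, 4081 and 4504 on the controls (difference 0.23 ± 0.11 SE, adjusted p = 0.11). Median centring ended the DBA day 18 call (adjusted p = 0.053). The BALB/c day 18 arrays overlapped, at 4836, 4542, 4132 and 4896 on the treated arrays and 4529, 3997, 4735 and 4622 on the controls, with a difference of 0.04 ± 0.093 (SE, adjusted p = 0.76).

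Psma2 rose in the same responses, by less than Psma4. In the F1 it read 5492, 5961 and 5123 on the treated arrays and 4114, 4537 and 4450.4 on the controls, without overlap, and rose by 0.34 ± 0.080 (SE, adjusted p = 0.0018). The DBA day 18 arrays read 5190, 6410.3 and 5955 on the treated arrays and 4837, 5245 and 4948 on the controls, where the lowest treated array lay just below the highest control, and Psma2 rose by 0.22 ± 0.080 (SE, adjusted p = 0.027). That call was lost without DBA day 18 replicate 2 or 3 or DBA control replicate 1 or 3, under median centring, and in a fit of that response alone. The remaining responses overlapped and did not pass. Psma2 read 5108, 5275 and 5155 on the treated arrays and 4797, 5027 and 5212 on the controls in BALB/c at day 3 (0.05 ± 0.080 SE, adjusted p = 0.7). It read 5002, 4774 and 4459 on the treated arrays and 5023, 4658 and 4724 on the controls in DBA at day 3 (-0.02 ± 0.080 SE, adjusted p = 0.9), and 4987, 4838, 4553 and 4789 on the treated arrays and 4417, 4169, 4585 and 4266 on the controls in BALB/c at day 18 (0.14 ± 0.070 SE, adjusted p = 0.12).

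Other alpha subunits were split. Psma5 rose in the F1 by 0.38 ± 0.093 (SE, adjusted p = 0.002), and its second probe set gave 0.66 there. Psma1 differed by 0.35 ± 0.20 (SE, adjusted p = 0.17) in the F1, and passed (adjusted p = 0.0019) without BALB/c control replicate 2. Psma6 fell in DBA by 0.31 ± 0.091 (SE, adjusted p = 0.011) at day 3 and by 0.28 ± 0.091 (SE, adjusted p = 0.014) at day 18. The probe set used for Psma6 is of a design whose probes may be shared with other transcripts, and further probe sets of Psma6 gave -0.29 and 0.21 at day 3 and -0.03 and 0.21 at day 18. Psma3 lay between -0.24 and 0.03 and was called in no response, or in BALB/c at day 3 (adjusted p = 0.036) without BALB/c control replicate 2.

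The beta-ring genes, which line the cutting chamber, stood below the alpha ring in every response. Their medians were -0.11 in BALB/c at day 3, 0.10 in the F1, -0.17 in DBA at day 3, -0.05 in BALB/c at day 18 and -0.12 in DBA at day 18. This order is a description of the medians and has no test. Of 7 members, 0 rose and 1 fell in BALB/c at day 3, 2 rose and 1 fell in the F1, 0 rose and 3 fell in DBA at day 3, 0 rose and 1 fell in BALB/c at day 18, and 0 rose and 2 fell in DBA at day 18. The shares that fell were 14.3%, 14.3%, 42.9%, 14.3% and 28.6%, against 17.2%, 18%, 13.4%, 22.2% and 25% of all tested genes. In the F1 28.6% rose, against 18.6%.

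Psmb7, encoded on chromosome 2, forms the trypsin-like cutting site and was the only core member to fall in every response. Psmb7 in BALB/c at day 3 read 7371, 7967 and 6756 on the treated arrays and 9612, 9841 and 9753 on the controls, and fell by 0.40 ± 0.11 (SE, adjusted p = 0.0042). Psmb7 in the F1 read 7389, 7564 and 7343 on the treated arrays and 8043, 9778 and 9629 on the controls, and fell by 0.29 ± 0.11 (SE, adjusted p = 0.034). Psmb7 in DBA at day 3 read 5939, 7096 and 7448 on the treated arrays and 11151, 8557 and 9909 on the controls, and fell by 0.53 ± 0.11 (SE, adjusted p = 0.00053). Each treated array of these day 3 groups lay below each control of its strain. Psmb7 in BALB/c at day 18 read 6536, 7152, 6983 and 7509 on the treated arrays and 8123, 7959.6, 9510.4 and 10004 on the controls, and fell by 0.33 ± 0.093 (SE, adjusted p = 0.0052). Psmb7 in DBA at day 18 read 6438, 6410.3 and 6687 on the treated arrays and 9863, 9045 and 10059.5 on the controls, and fell by 0.57 ± 0.11 (SE, adjusted p = 1e-04). Again no treated array reached a control. The F1 call was lost without any single F1 day 3 replicate, without F1 control replicate 2 or 3, and under 5 other settings, with adjusted p between 0.052 and 0.16. Quantile normalization ended the BALB/c day 3 call (adjusted p = 0.061), and median centring (0.081) or a fit of that response alone (0.075) the BALB/c day 18 call.

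**Figure D2:**
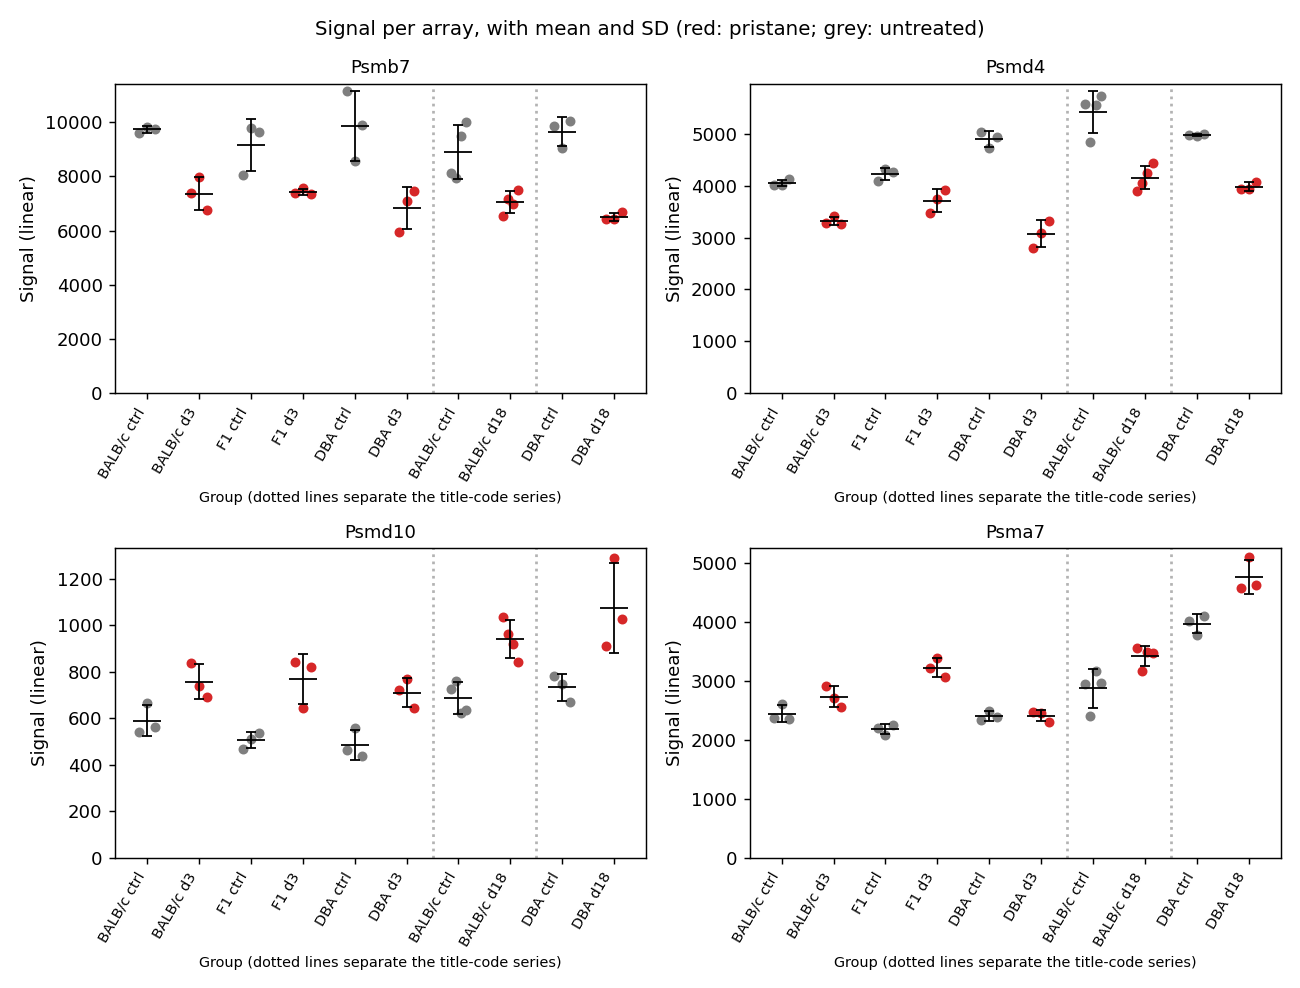
Linear signal per array (points, red after pristane and grey untreated) with the group mean and SD (black) for Psmb7, Psmd4, Psmd10 and Psma7, in groups of 3 or 4 arrays, where dotted lines separate the title-code series. Treated arrays lie below all controls of their strain and series for Psmb7 and Psmd4 and above them for Psmd10, and Psma7 overlaps in BALB/c and DBA at day 3.

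Psmb6, the caspase-like cutting subunit, fell in both DBA responses. It read, in DBA at day 3, 1352, 981 and 1390.4 on the treated arrays and 1519.8, 1555 and 1969 on the controls, and fell by 0.44 ± 0.12 (SE, adjusted p = 0.0067). It read, in DBA at day 18, 1823, 1867 and 1945 on the treated arrays and 2482, 2122 and 2561 on the controls, and fell by 0.34 ± 0.12 (SE, adjusted p = 0.022). The arrays did not overlap in either. The day 3 call was lost without DBA day 3 replicate 2 or DBA control replicate 6, and the day 18 call without DBA day 18 replicate 1 or 2 or DBA control replicate 1 or 3 or without the code series in the model. In BALB/c Psmb6 read 3588, 3553 and 3215 on the treated arrays and 3635, 3643 and 3991 on the controls at day 3 (-0.12 ± 0.12 SE, adjusted p = 0.47). It read 4755, 3932, 4034 and 4314 on the treated arrays and 4000.5, 4623, 4302 and 4457 on the controls in BALB/c at day 18 (-0.03 ± 0.10 SE, adjusted p = 0.84), and 2416, 2794 and 2679 on the treated arrays and 3147, 2675 and 2545 on the controls in the F1 (-0.08 ± 0.12 SE, adjusted p = 0.63). The BALB/c day 3 arrays lay just below their controls, and the latter groups overlapped. The BALB/c minus DBA difference of the response was 0.32 ± 0.17 (SE, adjusted p = 0.57) at day 3 and 0.31 ± 0.16 (SE, adjusted p = 0.33) at day 18.

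Psmb5, the chymotrypsin-like subunit, had values below 0 in all 5 responses, turning to 0.03 in the F1 with quantile normalization, and passed the test in none. Psmb5 at day 3 read 4694, 4794 and 4252 on the treated arrays and 5051, 4875 and 4926 on the controls in BALB/c, with a difference of -0.11 ± 0.079 (SE, adjusted p = 0.29). It read 4089, 4403 and 4171 on the treated arrays and 4226, 4334 and 4332 on the controls in the F1 (-0.03 ± 0.079 SE, adjusted p = 0.83), and 3741, 3836 and 4104 on the treated arrays and 4818, 4140 and 4237 on the controls in DBA (-0.17 ± 0.079 SE, adjusted p = 0.1). Treated arrays lay below the controls in BALB/c and DBA at day 3 and overlapped in the F1. Psmb5 at day 18 read 4591, 4463, 4461 and 4695 on the treated arrays and 4692, 5558, 5002 and 5099 on the controls in BALB/c (-0.16 ± 0.069 SE, adjusted p = 0.065), and 4695, 5216 and 4654 on the treated arrays and 4982, 5602 and 5578 on the controls in DBA (-0.15 ± 0.079 SE, adjusted p = 0.12). The day 18 groups overlapped. Without BALB/c control replicate 1 the BALB/c day 18 difference passed, at -0.20. Over all alternative settings, Psmb5 passed as lower in 3 of 19 in DBA at day 3. The counts at day 18 were 2 of 20 in BALB/c and 1 of 19 in DBA.

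The stretch of 250 bases before the start site is shown for Psmb5 and Psmb6, both of the cutting subunits searched (Psmb7 was not), which hold the core of an antioxidant response element there, the DNA letters read by factors of the Nfe2l family. Sequences are RefSeq's, on the mouse assembly GRCm38.p6, and the reference strain is neither BALB/c nor DBA. They are 5' to 3' on the gene's strand, with TGACNNNGC in capitals. Psmb5 lies at chr14:54617996-54618245 (minus strand) and Psmb6 at chr11:70525107-70525356 (plus strand).
Psmb5: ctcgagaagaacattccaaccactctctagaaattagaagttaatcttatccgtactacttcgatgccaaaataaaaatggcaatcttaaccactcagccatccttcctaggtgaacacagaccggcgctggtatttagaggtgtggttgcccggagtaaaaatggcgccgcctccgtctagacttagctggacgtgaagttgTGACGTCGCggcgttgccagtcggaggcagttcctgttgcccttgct
Psmb6: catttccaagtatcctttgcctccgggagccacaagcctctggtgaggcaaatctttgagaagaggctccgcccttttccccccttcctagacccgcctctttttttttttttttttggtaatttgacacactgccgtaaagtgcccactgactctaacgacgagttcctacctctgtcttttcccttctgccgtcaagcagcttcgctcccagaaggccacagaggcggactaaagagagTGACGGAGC
Of the 36 members, 29 matched a RefSeq promoter, and 5 of these (17.2%) held TGACNNNGC on either strand, namely Psmb5, Psmb6, Psmc6, Psmd9 and Psmd12, against 11.5% of 27025 genes. Psma8, Psmb1, Psmb2, Psmb7, Psmc3, Psmd3 and Psmd7 were not searched. CCAAT, searched on both strands, was in 12 of 29 (41.4%) against 37.5%. These matches are letters in a window and not shown to be bound. Of the 5 members with TGACNNNGC, Psmd9 rose in 2 responses, Psmb6 fell in 2, Psmd12 fell in 3, and Psmb5 and Psmc6 were called in none. A part of these letters in the changes was not tested.

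Non-catalytic beta subunits also went apart. Psmb2 rose in the F1 by 0.37 ± 0.11 (SE, adjusted p = 0.0078), and Psmb4 by 0.25 ± 0.096 (SE, adjusted p = 0.044). In BALB/c at day 18 Psmb2 differed by -0.14 ± 0.091 (SE, adjusted p = 0.21), and without BALB/c control replicate 2 it was called lower there, at -0.27 ± 0.070 (SE, adjusted p = 0.0026). Psmb3 fell in DBA at day 3 by 0.43 ± 0.13 (SE, adjusted p = 0.011), although its other probe set, of nearly the same brightness, gave -0.04 there. It was also called higher in the F1 (adjusted p = 0.032) without BALB/c control replicate 2. Psmb1 was called in no response and lay between -0.13 and 0.10.

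The interferon-inducible counterparts of the cutting subunits rose in 4 of the 5 responses. Psmb8 rose by 1.36, Psmb9 by 1.10 and Psmb10 by 1.29 on the log2 scale in BALB/c at day 3, by 2.38, 2.39 and 2.32 in the F1, by 1.68, 1.34 and 0.74 in BALB/c at day 18, and by 1.91, 1.84 and 1.32 in DBA at day 18. They stood in DBA at day 3 at 0.68, 0.39 and 0.60 with 0 of 3 called. The summed signal of the 3 genes was 5708 to 6830 on treated DBA day 3 arrays and 3416 to 5231 on their controls.

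**Figure D3:**
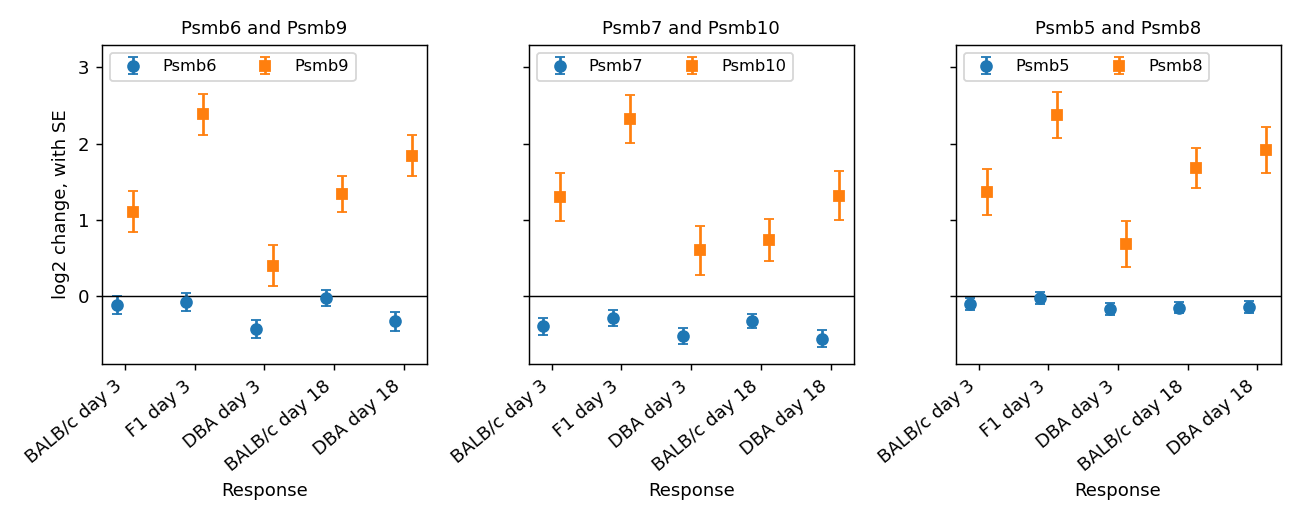
Log2 change (treated minus control, bars are SE of the fit) of each constitutive cutting subunit (blue circles) and its interferon-inducible counterpart (orange squares) in the 5 responses. Every blue point lies below 0 on this scale, where Psmb5 in the F1 and Psmb6 in BALB/c at day 18 turn with quantile normalization, and every orange point above it, and the orange points of DBA day 3 are the lowest among the day 3 responses.

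The cap ATPases, which unfold the substrate, had the fewest calls. Of 6 members, 0 passed in BALB/c at day 3, BALB/c at day 18 and DBA at day 18, 1 rose in the F1 (Psmc3, 0.34 ± 0.10 SE, adjusted p = 0.011) and 1 fell in DBA at day 3 (Psmc2, -0.30 ± 0.11 SE, adjusted p = 0.032). Over all tested genes 35.5%, 43.9%, 47.4%, 36.5% and 29.8% were called in these responses, in that order. Psmc2's probe set may share probes with other transcripts. Of its 2 other probe sets, 1 of similar brightness gave -0.38 in DBA at day 3, and the other did not have that sign. The medians of the 6 were -0.03, -0.06 and -0.07 in the responses with no call, 0.16 in the F1 and -0.20 in DBA at day 3. All 6 differences were above 0 in the F1 (5 with quantile normalization) and below 0 in DBA at day 3. Psmc1, Psmc4, Psmc5 and Psmc6 were called in none, and the widest difference among them was -0.35 ± 0.17 (SE, adjusted p = 0.13) for Psmc1 in DBA at day 3. Without BALB/c control replicate 2, Psmc1 was called lower in DBA at day 3 and in both day 18 responses, and Psmc4 lower in BALB/c at day 18.

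The cap subunits without ATPase activity leaned downward except in the F1. Of 11 members, 0 rose and 2 fell in BALB/c at day 3 (median -0.21), 2 rose and 0 fell in the F1 (-0.003, turning to 0.07 with quantile normalization and 0.02 with median centring), 0 rose and 6 fell in DBA at day 3 (-0.30), 0 rose and 4 fell in BALB/c at day 18 (-0.16), and 1 rose and 2 fell in DBA at day 18 (-0.19). The shares that fell were 18.2%, 0%, 54.5%, 36.4% and 18.2%, against 17.2%, 18%, 13.4%, 22.2% and 25% of all tested genes. Those of BALB/c at day 3 and DBA at day 18 were thus near or below the share over all genes. In the F1 18.2% rose, against 18.6%, and in DBA at day 18 9.09%, against 22.4%. Treated arrays lay below every control for 7 of the 11 in BALB/c at day 3, 2 in the F1, 9 in DBA at day 3, 4 in BALB/c at day 18 and 5 in DBA at day 18, against 27.6%, 26.4%, 24.4%, 15.1% and 33% of all genes.

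Psmd4, a ubiquitin receptor of the cap, fell in 4 of 5 responses and showed the largest change of any member. Psmd4 in DBA at day 3 read 2801, 3093 and 3323 on the treated arrays and 5040.5, 4738 and 4944 on the controls, and fell by 0.67 ± 0.076 (SE, adjusted p = 2.3e-07). Psmd4 in BALB/c at day 3 read 3275, 3414 and 3268 on the treated arrays and 4023, 4024 and 4130.2 on the controls, and fell by 0.29 ± 0.076 (SE, adjusted p = 0.0038). Psmd4 in the F1 read 3474, 3743 and 3915 on the treated arrays and 4099, 4327 and 4277 on the controls, a difference of -0.19 ± 0.076 (SE, adjusted p = 0.05) that did not pass, or did (adjusted p = 0.017) without BALB/c control replicate 2. In all 3 groups the treated arrays lay below the controls. Psmd4 in BALB/c at day 18 read 3912, 4061, 4245 and 4436 on the treated arrays and 5576, 4845, 5567 and 5733 on the controls, and fell by 0.38 ± 0.066 (SE, adjusted p = 3.6e-05). Psmd4 in DBA at day 18 read 3932, 3943 and 4082 on the treated arrays and 4982, 4971 and 5007 on the controls, and fell by 0.32 ± 0.076 (SE, adjusted p = 0.00096). Both day 18 groups were free of overlap, and the lowest BALB/c control was replicate 2. Without the code series in the model the BALB/c day 18 call was lost (adjusted p = 0.072). Further probe sets of Psmd4 were dimmer. The brighter of them gave -0.32, -0.04, -0.40, -0.28 and -0.42 in BALB/c day 3, F1, DBA day 3, BALB/c day 18 and DBA day 18, and the dimmest between -0.32 and 0.17, so that the mean over the probe sets passed in none of the 4 responses.

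Psmd14, the enzyme that cuts the ubiquitin chain off the substrate, fell in DBA at day 3, where it read 6749, 6277 and 6708 on the treated arrays and 9334, 7859 and 7529 on the controls, by 0.32 ± 0.12 (SE, adjusted p = 0.043). The call was lost without any single DBA day 3 replicate, without DBA control replicate 4 or 5, and under both other normalizations, without the dim filter or without the code series, with adjusted p of 0.055 to 0.67. At day 18 in DBA it read 4551, 5466 and 4931 on the treated arrays and 5819, 5579 and 6378 on the controls, again below all controls, with a difference of -0.25 ± 0.12 (SE, adjusted p = 0.084). The remaining groups overlapped. Psmd14 read 7863, 7615 and 7027 on the treated arrays and 7225, 7717 and 8421 on the controls in BALB/c at day 3 (-0.05 ± 0.12 SE, adjusted p = 0.77). It read 7768, 7978 and 6009 on the treated arrays and 6346, 7699 and 8096 on the controls in the F1 (-0.03 ± 0.12 SE, adjusted p = 0.87), and 5949.6, 5579, 5674 and 5645 on the treated arrays and 7035, 5389, 6562 and 6994 on the controls in BALB/c at day 18 (-0.18 ± 0.10 SE, adjusted p = 0.17). BALB/c control replicate 2, at 5389, was the lowest array of that last comparison, and without it Psmd14 passed as lower in both day 18 responses.

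Psmd8, a subunit of the cap's lid, was the non-ATPase subunit that rose most often. It read 3716, 3970.1 and 4118 on the treated arrays and 2928, 3478 and 3344 on the controls in the F1, and rose by 0.28 ± 0.10 (SE, adjusted p = 0.038). At day 18 in DBA it read 5073, 5481 and 6345 on the treated arrays and 4786, 4896 and 4275 on the controls, and rose by 0.27 ± 0.10 (SE, adjusted p = 0.034). The treated arrays lay above the controls in both. The F1 call was lost without F1 day 3 replicate 2 or 3 or F1 control replicate 1 or 3, and the DBA call without DBA day 18 replicate 2 or 3 or DBA control replicate 3. Median centring or a separate fit of each response ended both calls, and leaving out the dim filter or the code series ended the F1 call. In BALB/c at day 3 Psmd8 lay below its controls, at 2609, 2753 and 2857 on the treated arrays and 3111, 3393 and 3066 on the controls, a difference of -0.22 ± 0.10 (SE, adjusted p = 0.11). It overlapped in DBA at day 3, at 4104, 3669 and 3388 on the treated arrays and 3954, 2967 and 3193 on the controls (0.15 ± 0.10 SE, adjusted p = 0.31), and in BALB/c at day 18, at 4468, 4353, 4593 and 5127 on the treated arrays and 4235, 4108, 4302 and 4434 on the controls (0.12 ± 0.090 SE, adjusted p = 0.31).

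Other lid and base subunits were called lower in 1 to 3 responses. Psmd12, of the lid, fell by 0.30 ± 0.084 (SE, adjusted p = 0.0084) in DBA at day 3, by 0.31 ± 0.073 (SE, adjusted p = 0.0011) in BALB/c at day 18 and by 0.25 ± 0.084 (SE, adjusted p = 0.015) in DBA at day 18, and without BALB/c control replicate 2 also passed in BALB/c at day 3 (adjusted p = 0.029). Psmd11, a lid subunit, fell by 0.23 in BALB/c at day 3, 0.21 in DBA at day 3 and 0.22 in BALB/c at day 18, and its 5 other probe sets had the same sign in BALB/c and 4 of them in DBA. Psmd11 was also called lower in DBA at day 18 (adjusted p = 0.03) without BALB/c control replicate 2. Psmd6, of the lid, fell by 0.61 ± 0.13 (SE, adjusted p = 0.00039) in BALB/c at day 18, its only call, and its other probe set fell by 0.43 there. The array BALB/c control replicate 2 read 10107 for Psmd6, against 5267 to 5833 on the other controls of that series. Without it the BALB/c day 18 fall was 0.40 ± 0.084 (SE, adjusted p = 3e-04), and Psmd6 was also called lower in DBA at day 18, at -0.29 ± 0.090 (SE, adjusted p = 0.0073). Psmd1, a scaffold of the base, fell by 0.38 ± 0.14 (SE, adjusted p = 0.036) in DBA at day 3, and without that array also in BALB/c at day 3 (adjusted p = 0.0054), BALB/c at day 18 (0.0014) and DBA at day 18 (0.017). Psmd3, a lid subunit, rose by 0.39 ± 0.10 (SE, adjusted p = 0.0047) in the F1 and fell by 0.31 ± 0.10 (SE, adjusted p = 0.025) in DBA at day 3. Psmd2, Psmd7 and Psmd13 were called in none, with differences between -0.39 and 0.19. Psmd2 was called lower, without that control array, in both day 3 responses of the parental strains and in BALB/c at day 18. Of the 49 calls over all members and responses, 19 concerned genes with another usable probe set, and 32 of the 38 values of those probe sets had the same sign, 9 of them with an adjusted p under 0.05.

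The assembly chaperones, which hold ATPases together while the cap is built and leave the finished particle, went in opposite directions. Psmd10 (gankyrin), encoded on the X chromosome, rose in all 5 responses. Psmd10 in BALB/c at day 3 read 839, 738 and 693 on the treated arrays and 541, 666 and 561 on the controls, and rose by 0.35 ± 0.13 (SE, adjusted p = 0.039). Psmd10 in the F1 read 843, 645 and 819.5 on the treated arrays and 468, 511 and 536 on the controls, and rose by 0.58 ± 0.13 (SE, adjusted p = 0.0011). Psmd10 in DBA at day 3 read 720.1, 767 and 641 on the treated arrays and 461, 556 and 436 on the controls, and rose by 0.53 ± 0.13 (SE, adjusted p = 0.003). All treated arrays lay above all controls of their strain. Psmd10 in BALB/c at day 18 read 1037, 960.3, 918 and 843 on the treated arrays and 726, 760.4, 619.8 and 633 on the controls, and rose by 0.44 ± 0.11 (SE, adjusted p = 0.0024). Psmd10 in DBA at day 18 read 909, 1287 and 1028 on the treated arrays and 782, 745 and 668 on the controls, and rose by 0.53 ± 0.13 (SE, adjusted p = 0.0016). These groups did not overlap either. The BALB/c day 3 call was lost without BALB/c day 3 replicate 1 or 2 or BALB/c control replicate 5 or 7, under both other normalizations, without the filter on dim genes (adjusted p = 0.054) and without the code series in the model, which also ended the DBA day 3 call.

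Psmd9 rose in the F1 and in DBA at day 18. The F1 arrays read 603, 594 and 717 on the treated arrays and 512, 442 and 510.1 on the controls, without overlap, and Psmd9 rose by 0.37 ± 0.12 (SE, adjusted p = 0.016). DBA arrays of day 18 read 786, 856 and 691 on the treated arrays and 499, 572 and 581 on the controls, also without overlap, and it rose by 0.48 ± 0.12 (SE, adjusted p = 0.0016). Its F1 call was lost without F1 day 3 replicate 3 or F1 control replicate 2, and both calls with the mean over its probe sets, the second of which is dim. The other responses overlapped. Psmd9 read 698, 652 and 639 on the treated arrays and 621, 473 and 655 on the controls in BALB/c at day 3 (0.19 ± 0.12 SE, adjusted p = 0.23). It read 524, 505 and 514 on the treated arrays and 435, 512 and 522 on the controls in DBA at day 3 (0.07 ± 0.12 SE, adjusted p = 0.7), and 666, 731, 745 and 760.3 on the treated arrays and 598, 656, 609 and 773 on the controls in BALB/c at day 18 (0.14 ± 0.10 SE, adjusted p = 0.29). Psmd5, the remaining chaperone, fell by 0.29 ± 0.099 (SE, adjusted p = 0.026) in DBA at day 3, by 0.39 ± 0.086 (SE, adjusted p = 0.00066) in BALB/c at day 18 and by 0.31 ± 0.099 (SE, adjusted p = 0.012) in DBA at day 18.

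The 250 bases before the start site are shown for Psmd10 and Psmd4, the cap members called in most responses, in opposite directions. Capitals mark CCAAT or, where it lies on the other strand, ATTGG, the letters read by the factor NF-Y. Psmd10 lies at chrX:140956712-140956961 and Psmd4 at chr3:95042615-95042864, both on the minus strand, in RefSeq's GRCm38.p6.
Psmd10: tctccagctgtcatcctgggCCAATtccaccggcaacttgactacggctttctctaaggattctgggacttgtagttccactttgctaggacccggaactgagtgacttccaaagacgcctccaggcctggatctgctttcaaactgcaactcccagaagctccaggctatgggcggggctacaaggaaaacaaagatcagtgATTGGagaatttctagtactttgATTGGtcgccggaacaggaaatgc
Psmd4: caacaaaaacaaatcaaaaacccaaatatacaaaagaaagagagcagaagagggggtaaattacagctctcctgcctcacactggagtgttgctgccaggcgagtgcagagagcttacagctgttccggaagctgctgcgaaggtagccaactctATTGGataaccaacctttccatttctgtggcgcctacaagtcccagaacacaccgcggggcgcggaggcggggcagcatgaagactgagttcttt
Both windows hold CCAAT on at least 1 strand, as do 37.5% of all genes searched, and neither holds TGACNNNGC. Whether these letters have a part in either change was not tested.

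Core and cap are built apart and join to form the particle, and their changes were set side by side. In each response the median change of the core lay above that of the cap, at -0.10 and -0.12 in BALB/c at day 3, 0.26 and 0.10 in the F1, -0.10 and -0.21 in DBA at day 3, 0.00 and -0.07 in BALB/c at day 18, and -0.07 and -0.12 in DBA at day 18. The gaps were 0.02, 0.16, 0.12, 0.07 and 0.04, and with means in place of medians 0.02, 0.07, 0.04, 0.10 and 0.02. These are descriptions without a test, and the gap is smaller than the spread among members, whose SD was 0.17 in the core and 0.17 in the cap in BALB/c at day 3 and up to 0.27 in the core of the F1. The order turned in DBA at day 18 with the mean over probe sets (-0.02) or array weights (-0.01), and in BALB/c at day 3 without BALB/c day 3 replicate 2 (-0.02). Without the assembly chaperones the cap median in DBA at day 18 was -0.14.

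By array, the mean deviation of the core members from their controls was 0.12 to 0.25 on the treated F1 arrays and that of the cap members 0.05 to 0.15. On DBA day 3 arrays the core stood at -0.16 to -0.15 and the cap at -0.21 to -0.18. No control of these strains reached these ranges, with core deviations of -0.06 to 0.07 in F1 controls and -0.06 to 0.08 in DBA controls. BALB/c day 3 arrays ran from -0.11 to -0.03 for the core and from -0.15 to -0.04 for the cap, below their controls, which ran from -0.01 to 0.01 and from -0.02 to 0.02. At day 18 treated and control arrays overlapped for core and cap in both strains. The overlap of the cap in BALB/c came from control replicate 2 alone, the lowest array of that series at -0.18 for the cap and -0.19 for the core, and without it the gap between core and cap was 0.15. Core exceeded cap on 4 of 4 treated BALB/c day 18 arrays, by 0.06 to 0.19, and on their controls core minus cap ran from -0.10 to 0.09, a range that holds 3 of the 4 treated values.

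**Figure D4:**
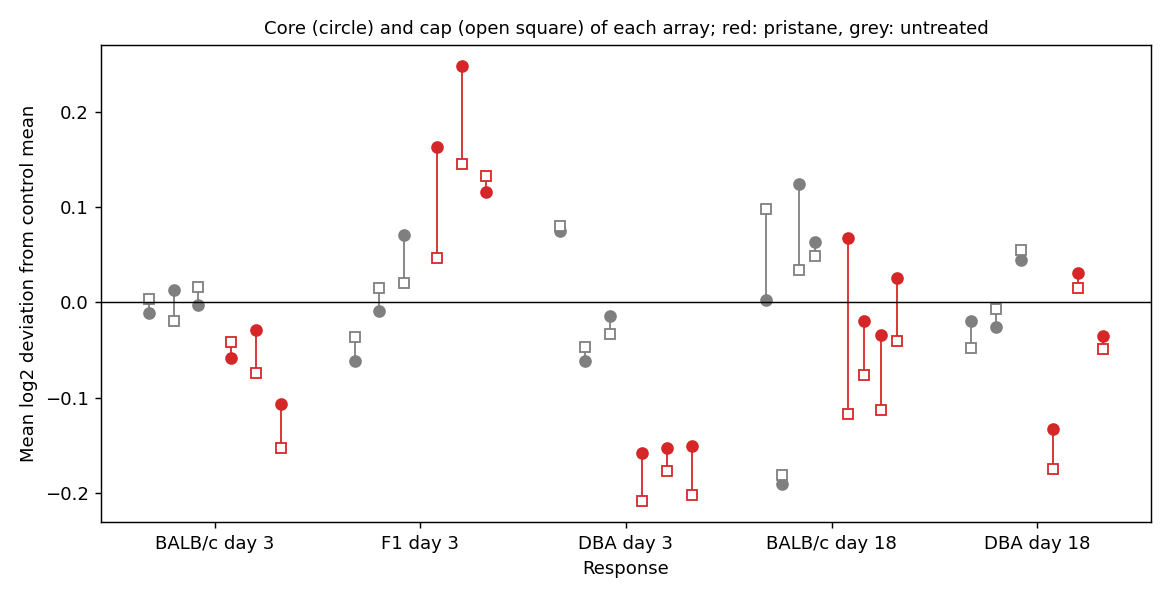
Mean log2 deviation of the 14 core members (circles) and the 20 cap members (open squares) from the mean of the same-strain, same-series controls, for each array (a line joins the values of 1 array; red after pristane, grey untreated) in the 5 responses. All treated DBA day 3 values lie between -0.21 and -0.15 and all treated F1 values above 0, whereas both day 18 responses overlap with their controls.

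The strains' day 3 responses were set against each other. The F1 and DBA pair had the most members called, 4 of 34, all higher in the F1, against 2.01% of all tested genes called, 1.68% higher and 0.33% lower. Psmd3 read 1799, 2126 and 2308 on the treated arrays and 1487, 1529.8 and 1709.7 on the controls in the F1. In DBA at day 3 it read 1598, 1686 and 1422 on the treated arrays and 1988, 1972 and 1892 on the controls, with responses that differed by 0.70 ± 0.15 (SE, adjusted p = 0.0069). Treated arrays of Psmd3 lay above the controls in the F1 and below them in DBA. Psmb3 read 3434, 3856 and 3465 on the treated arrays and 3392, 2662 and 2854 on the controls in the F1. In DBA at day 3 it read 2558, 2832 and 2419 on the treated arrays and 3788, 3585 and 3194 on the controls, and the responses differed by 0.71 ± 0.18 (SE, adjusted p = 0.031). The arrays of Psmb3 also separated in opposite directions. For Psma7 the difference was 0.56 ± 0.12 (SE, adjusted p = 0.0095) and for Psmd4 0.48 ± 0.11 (SE, adjusted p = 0.01). The difference was above 0 for 34 of 34 members, with a median of 0.32, beside 45.2% and -0.04 over all tested genes. Without BALB/c control replicate 2, 7 members were called higher, against 2.74% of all genes, the added ones being Psma5, Psmb2 and Psmc2, and under median centring 1 was. The F1 difference carries the unequal Xist status of F1 treated and control arrays, and its part in the result was not tested.

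The other differences of responses called no member. F1 minus BALB/c at day 3, which uses the same F1 arrays, called 0 of 34 (10 at an unadjusted p under 0.05) against 0.238% of all genes, with all 34 values above 0 (33 with quantile normalization) and a median of 0.19, and called Psma7 and Psmb2 higher without BALB/c control replicate 2, against 0.691% of all genes. BALB/c minus DBA called 0 at day 3 (4 unadjusted) and 0 at day 18 (2 unadjusted), against 0.492% and 1.01% of all genes, and Psmd4 higher at day 3 without that array, against 1.01%. Day 18 minus day 3 called 0 in BALB/c (1 unadjusted) against 0.361%, and 0 in DBA (5 unadjusted) against 4.18%. The smallest adjusted p in the latter was 0.057, for Psmd4, and Psmd2 and Psmd4 passed as higher without that array, against 4.62%. A p that misses the threshold does not show that these responses were equal.

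Without treatment, DBA controls of the day 3 series were compared with BALB/c controls of the same series. Psmb6 was lower in DBA and Psmd4 higher, 1 member in each direction, against 7.68% of all tested genes called, 3.64% lower and 4.03% higher. DBA arrays lay wholly above BALB/c arrays for 1 member and below for 5, against 15.5% and 14.7% of all genes. Psmb6 read 1519.8, 1555 and 1969 on DBA controls and 3635, 3643 and 3991 on BALB/c controls, a difference of -1.16 ± 0.12 (SE, adjusted p = 1.5e-07), or 2.23-fold. Every DBA array lay far below every BALB/c array. Psmd4 read 5040.5, 4738 and 4944 on DBA controls and 4023, 4024 and 4130.2 on BALB/c controls, a difference of 0.27 ± 0.076 (SE, adjusted p = 0.025). These also did not overlap, but the Psmd4 call was lost without any single BALB/c control of that series and without DBA control replicate 4 or 6. Psmb6 stayed called in each of these.

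Psmb6 kept the same order of strains in treated and untreated arrays. The mean signal in the day 3 series was 3756 ± 203 in BALB/c controls, 2789 ± 317 in F1 controls and 1681 ± 250 in DBA controls (SD, n = 3), and 3452 ± 206, 2630 ± 194 and 1241 ± 226 after pristane. The BALB/c day 18 series averaged 4346 ± 265 untreated and 4259 ± 368 treated (SD, n = 4). The DBA day 18 series averaged 2388 ± 234 untreated and 1878 ± 61.6 treated (SD, n = 3). The F1 lay between the parents, and neighbouring strains did not overlap within the day 3 series. Psmb6 has 1 probe set on this array, so a sequence difference between the strains under its probes cannot be told apart from a difference in RNA.

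**Figure D5:**
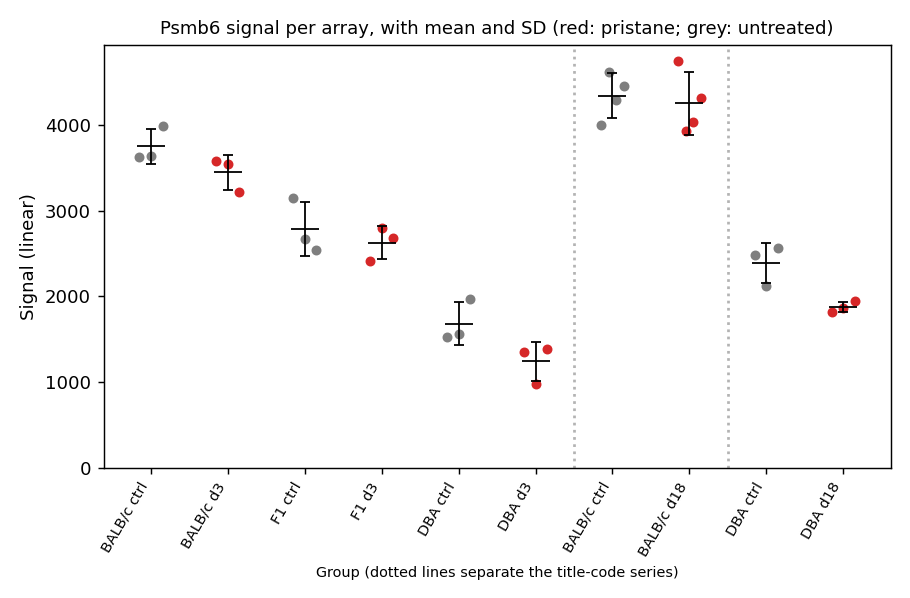
Linear Psmb6 signal per array (points, red after pristane and grey untreated) with group mean and SD (black) in 3 to 4 arrays per group, where dotted lines separate the title-code series. Signals fall from BALB/c over the F1 to DBA in treated and untreated arrays alike, from 3756 to 1681 in the controls of the day 3 series.

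Genes around the particle were described from lists of the pathway. Among regulators of proteasome genes (8 tested), Nfe2l1, the factor that drives the subunit genes, fell in all 5 responses, by 0.51, 0.46 and 0.42 in BALB/c, F1 and DBA at day 3 and by 0.66 and 0.89 in BALB/c and DBA at day 18. Ngly1, the enzyme that processes the Nfe2l1 protein, fell in all 5 as well, by 0.30 to 0.61. Nfe2l3, a relative of Nfe2l1, rose in all 5, by 1.01 to 1.68. Nfe2l2, the oxidative stress factor, rose by 0.98 and 1.02 at day 18 in BALB/c and DBA and by 0.42 in DBA at day 3. The list had 2 higher and 2 lower in BALB/c at day 3, 3 and 2 in the F1, 3 and 3 in DBA at day 3, 3 and 2 in BALB/c at day 18, and 3 and 3 in DBA at day 18. Over all tested genes, 18.3%, 18.6%, 16.4%, 21.7% and 22.4% rose in these responses, in that order. In the same order 17.2%, 18%, 13.4%, 22.2% and 25% fell, and the same shares stand beside the pathway and marker lists that follow.

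Of 5 assembly factors of the core, 3 rose in the F1, namely Psmg4 by 0.76, Psmg3 by 0.62 and Pomp by 0.40. Psmg4 also rose by 0.46 in BALB/c at day 3 and 0.34 in BALB/c at day 18, whereas Psmg1 fell by 0.23 in DBA at day 3, 0.27 in BALB/c at day 18 and 0.34 in DBA at day 18. Among 4 activators and inhibitors, Psme1, a subunit of the interferon-inducible activator, rose by 0.78 in the F1, 0.75 in BALB/c at day 18 and 0.66 in DBA at day 18, and Psme4 fell by 0.51 in DBA at day 3, 0.44 in BALB/c at day 18 and 0.35 in DBA at day 18. Of 6 cap-associated proteins, 0 passed in any day 3 response and 1 rose in each day 18 response. Among 8 genes of ubiquitin supply and shuttling, 3 or 4 fell in each response, and Ubqln1, Ubqln4 and Ufd1 fell in all 5, Ubqln1 by 0.50 to 0.88. At day 18, 1 of these 8, Uba6, rose in both strains.

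RNA of cell type markers moved with treatment, and cells were not counted. Of 9 macrophage markers, 8 rose in BALB/c and F1 at day 3 and 9 elsewhere, with a summed signal of 60043 to 94175 on treated arrays and 23764 to 35942 on controls over the 5 responses. Of 8 neutrophil markers, 6, 5 and 3 rose in BALB/c, F1 and DBA at day 3 and 8 in each strain at day 18. All 13 proliferation genes rose in all 5. Of 8 adipocyte markers, 6, 5 and 0 fell at day 3 in BALB/c, F1 and DBA, and 8 and 7 at day 18 in BALB/c and DBA. Pancreatic acinar markers (0 of 8 called) had summed signals of 2024 to 151560 on treated and 1199 to 948333 on control arrays of the BALB/c day 18 series, against at most 5488 in the other responses. Of 6 intestinal epithelial markers, 2 fell in the F1, 1 rose in BALB/c at day 18 and 1 fell in DBA at day 18. Their summed signal was 620 to 17421 on F1 controls and 339 to 445 on treated F1 arrays. It reached 7042 on treated BALB/c day 18 arrays. Of 5 smooth muscle markers, 1 fell in the F1. Of 3 tested B cell markers, 1 rose in the F1 and 2 in BALB/c at day 18. Of 6 markers of mesothelium, the lining cells of the mesentery, 1 or 2 rose and at most 2 fell in each response, and their summed signal was 9955 to 26149 over all arrays of the 5 responses. Of 6 endothelial markers, 2, 3 and 1 fell at day 3 in BALB/c, F1 and DBA and 3 and 6 at day 18 in BALB/c and DBA. Of 7 T and NK cell markers, 2, 6 and 1 rose at day 3 and 6 in each strain at day 18, where 1 fell in DBA. Of 7 plasma cell markers, 4, 3 and 2 rose at day 3, with 1 lower in DBA, and 5 in each strain at day 18. The part of these cell types, and of the actin ratio, in the proteasome results was not tested.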

How the data were processed

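The deposited values are probe set intensities on a linear scale, made by the authors with GCOS and MAS5, per the submitters' processing notes. Tool versions are not given here. Each array's deposited intensity had a trimmed mean (2%) of 500, and 13 values were listed at 0.

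Of 45101 probe sets, those naming 1 gene and passing the dim filter (signal above 103.7 on 3 arrays) were kept, 23198 in all, and the brightest stood for its gene. The members have 74 probe sets, 63 of them kept, and 17 members have more than 1. One model with a level for each group in each code series was fitted with limma 3.58.1 in R 4.3.3 (trended moderated variance, two-sided, Benjamini-Hochberg adjustment over 13016 genes). A response takes its size from its own arrays and its spread from all 32, whose number limits the precision. The members and lists were chosen with earlier results of these data known. Values on every array are given for Psmb5, Psmb6, Psmb7, Psmd14 and Psmd4, for the 3 core and 3 cap genes with the largest mean change over the responses and for the lowest of each, and members called in a difference of responses are named. Psmb3 and Psmd3 belong to the latter, and other members and pathway genes were named after their values were seen.

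On simulated data over 13016 genes, changes of 1 log2 unit were recovered in 66% (F1) to 78% (DBA day 3) of cases in the 5 responses, and changes of 2 log2 units in 94% (F1) to 100% (DBA day 3), with 5.33% (F1) to 7.77% (DBA day 3) of calls false. In the 6 differences of responses, changes of 1 log2 unit were recovered in 47% (BALB/c minus DBA at day 3) to 63% (BALB/c minus DBA at day 18). The largest change of a member in a response was 0.67 log2 units, so recovery at the sizes reported here was not tested. Alternatives were other offsets, dim filters, normalizations and models, probe sets averaged or singly, and each array left out. Replicate numbers follow the order of deposit and only name an array.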

Additional observations from a re-analysis of the deposited data

Results flagged for a closer look

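The F1 and DBA responses at day 3 differed for 4 members by a test of the difference itself. The log2 change was larger in the F1 by 0.56 for Psma7, by 0.71 for Psmb3, by 0.70 for Psmd3 and by 0.48 for Psmd4, with adjusted p of 0.0095, 0.031, 0.0069 and 0.01. All 3 treated F1 arrays were high and all 3 F1 controls low in Xist, so sex and treatment cannot be told apart there. For Psmb3 the other probe set gave 0.45 in the F1 and -0.04 in DBA, neither past the threshold. In the groups of 4 arrays, Dixon's test was run 26 times on the members with values given on every array and on the core and cap means, and flagged 0 values. Other members were not put to it, among them Psmd6, for which BALB/c control replicate 2 read 10107 against 5267 to 5833. That array stood apart by its highest correlation of 0.858.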

How the results depend on the processing

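Of 1056 alternative values of the named members, 929 kept their direction and side of the threshold, 71 lost a call, 25 gained one and 31 turned sign. All 31 were of values not called in the main or the alternative setting, and Psma7 in DBA at day 3 (-0.36 without the code series) was the farthest from 0 after turning. Without any dim filter the core minus cap gap was 0.073 in the F1 and 0.158 in DBA at day 3, and with a stricter filter day 18 minus day 3 in DBA called 1 member. Quantile normalization gave a gap of 0.162 in DBA at day 3. Median centring left 1 call in F1 minus DBA and 1 between untreated strains. Without the code series, which adds controls of other series, BALB/c at day 3 had 10 calls, F1 7, BALB/c day 18 minus day 3 had 2, DBA day 18 minus day 3 had 19 and the untreated strains 1, with gaps of 0.277 (BALB/c) and 0.0696 (DBA) at day 3 and 0.0833 (DBA) at day 18. A fit of each comparison alone gave 3 calls in BALB/c at day 18 and 1 between untreated strains. The ordinary linear model called 1 in BALB/c minus DBA at day 3 and 1 in DBA day 18 minus day 3. Array weights gave 13 calls in BALB/c at day 3, 20 in the F1, 3 in BALB/c minus DBA and 12 in F1 minus DBA, 7 in F1 minus BALB/c, 1 in BALB/c minus DBA at day 18, 5 in DBA day 18 minus day 3 and 4 between untreated strains, with gaps in DBA of 0.147 at day 3 and -0.0104 at day 18. The mean over probe sets gave day 18 gaps of 0.146 (BALB/c) and -0.0199 (DBA). The mean in place of the median gave 0.0676 in the F1 and, in DBA, 0.0419 at day 3 and 0.0239 at day 18, and the cap without assembly chaperones 0.0721 for the latter. The shares of all tested genes called under the settings of these counts are not given. A moved count can thus not be read as particular to the members. The cause was not tested.

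Leaving out each array in turn gave 2 to 8 calls in BALB/c at day 3, 8 to 15 in the F1, 7 to 15 in DBA at day 3, 8 to 14 in BALB/c at day 18 and 7 to 17 in DBA at day 18, and gaps of -0.0209 to 0.0313, 0.124 to 0.192, 0.105 to 0.176, 0.0288 to 0.149 and 0.0244 to 0.0838 in that order. Differences of responses gave 0 to 1 in BALB/c minus DBA at day 3, 3 to 7 in F1 minus DBA, 0 to 2 in F1 minus BALB/c, 0 to 2 in DBA day 18 minus day 3 and 0 in the others, and the untreated strains 1 to 2. Among these fits, shares over all genes are given only for the one without BALB/c control replicate 2. The number of arrays limits the precision. No paired analysis was possible because the labels give no replicate numbers that the groups share.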
